A study of Mus musculus with 3 samples.

Results

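The genes described here are Icam1, its relative Icam2, the leukocyte integrin chains Itgal, Itgam, Itgax and Itgb2, and the linker proteins Ezr and Msn, 8 genes taken by name from the 30406 genes whose Ensembl IDs stood in the gene tables of all 3 libraries. All 8 were found in each table. The libraries were made with 10x Genomics Chromium 3′ v3 chemistry from lungs of C57/B6 mouse embryos at E14.5, a stage of branching with a growing distal epithelium. No allele or drug treatment is named in the labels, so the groups differ by the sorting gate alone as far as these state. 2 libraries held cells sorted as Epcam+ Icam+ (libraries 1 and 2) and 1 library held cells sorted as Epcam+. Epcam is an adhesion protein of epithelial cells, and Icam1 protein was itself the second gate, with staining by Epcam-APC and Icam1-PE antibodies. Lungs from the embryos of 2 females were pooled before dissociation, and it is not stated whether the libraries came from separate pools, so the p-values below rest on library-to-library spread alone, and that spread may be technical. A sort by protein also limits what transcript levels can say of cells outside the gate.

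Icam1 is a surface ligand for the β2 integrins of leukocytes. The β2 chain Itgb2 pairs with one α chain at a time, giving LFA-1 with Itgal, Mac-1 with Itgam and p150,95 with Itgax, and without Itgb2 the α chains do not reach the surface. Ezrin (Ezr) and moesin (Msn) bind the cytoplasmic tails of Icam1 and Icam2 and tie them to cortical actin. In the adult lung Icam1 is carried by alveolar type 1 cells and endothelium, and inflammatory signals acting through NF-κB raise its transcription, while Icam2 is typical of endothelium and leukocytes.

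On GRCm38 with GENCODE vM21 annotation, all 8 genes are protein-coding. Icam1 lies at chr9:21015985-21028817 on the plus strand, Icam2 at chr11:106377656-106388075 on the minus strand, Itgb2 at chr10:77530252-77565708 on the plus strand, Ezr at chr17:6738041-6782784 on the minus strand and Msn at chrX:96096042-96168552 on the plus strand. The 3 α chain genes are all on the plus strand of chromosome 7, Itgal at chr7:127296260-127335138, Itgam at chr7:128062640-128118491 and Itgax at chr7:128129547-128150657, with Itgax next downstream of Itgam among these genes. The promoters below show the ligand Icam1 beside 2 of its receptor chains, since these genes were read in different cells. Each runs from 250 bases before to 50 bases after the RefSeq start on GRCm38.p6. A promoter was matched for 5 of the 8 genes (Icam1, Itgam, Itgax, Ezr and Msn), and Icam2, Itgal and Itgb2 are named only. Capitals mark matches on either strand to a general NF-κB-type motif (GGNNNTTCC) in Icam1, to the core of a PU.1-type motif (GAGGAA) in Itgam, and to an AP-1-type motif (TGAGTCA) in Itgax.
Icam1 promoter, chr9:21015690-21015989, plus strand: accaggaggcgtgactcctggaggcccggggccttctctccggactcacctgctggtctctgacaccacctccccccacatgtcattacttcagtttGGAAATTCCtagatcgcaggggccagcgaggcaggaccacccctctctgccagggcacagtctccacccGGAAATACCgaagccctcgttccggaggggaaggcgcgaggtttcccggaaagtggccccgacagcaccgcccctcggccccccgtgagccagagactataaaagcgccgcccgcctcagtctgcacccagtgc
Itgam promoter, chr7:128062390-128062689, plus strand: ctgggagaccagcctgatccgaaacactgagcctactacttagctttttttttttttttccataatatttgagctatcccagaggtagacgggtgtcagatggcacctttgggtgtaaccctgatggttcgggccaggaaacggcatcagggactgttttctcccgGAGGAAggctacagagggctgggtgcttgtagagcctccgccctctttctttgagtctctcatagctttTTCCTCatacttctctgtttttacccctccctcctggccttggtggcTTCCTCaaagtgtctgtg
Itgax promoter, chr7:128129300-128129599, plus strand: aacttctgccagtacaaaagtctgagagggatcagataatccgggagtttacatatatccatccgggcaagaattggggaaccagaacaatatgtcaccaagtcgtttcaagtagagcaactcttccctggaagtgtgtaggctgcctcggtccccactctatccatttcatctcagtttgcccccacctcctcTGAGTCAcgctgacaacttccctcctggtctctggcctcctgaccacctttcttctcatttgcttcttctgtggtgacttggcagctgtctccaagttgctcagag

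The Icam1 promoter held GGNNNTTCC at -153 and, as its reverse complement, at -84 (first base from the start). Among 32851 RefSeq promoters of the same length, 18.5% held the NF-κB-type letters. GAGGAA stood at -84, -15 and 32 in Itgam and at -220 in Msn, and 28.3% of all promoters held it. TGAGTCA stood at -56 in Itgax and at -32 in Ezr, and 5.20% of all promoters held it. No match overlapped another, and these are matches of letters, not sites.

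After filtering, 3271 and 3052 cells of Epcam+ Icam+ libraries 1 and 2 and 2902 cells of the Epcam+ library were clustered without the 8 genes, Epcam and other excluded genes, and clusters were named from marker genes as "-like". Epithelial cells numbered 2466 and 2330 in Epcam+ Icam+ libraries 1 and 2 and 2674 in the Epcam+ library. They included airway-like, alveolar type 1-like, distal tip-like and alveolar type 2-like cells and unnamed clusters. The cluster called alveolar type 2-like had tip markers as often as alveolar type 2 markers among its leading genes and was not compared. In the cells called tip-like, summed alveolar type 2 markers lay above summed tip markers in each library, as given below. A joint clustering named 0 and 4 cells of Epcam+ Icam+ libraries 1 and 2 tip-like, against 907 of the Epcam+ library, so this name is a loose one. Macrophage-like cells numbered 364 and 342 in the Epcam+ Icam+ libraries (11.1% and 11.2% of cells) and 25 (0.861%) in the Epcam+ library. Basophil/mast-like cells numbered 15, 19 and 7, and monocyte-like cells 37, 52 and 2. All 11 macrophage markers were detected in the macrophage-like cells of each library, at a summed 12598, 12587 and 13691 CPM (UMI counts scaled to the total of the class), against 12.5, 36.5 and 22.8 CPM in epithelium. A further 303, 201 and 149 barcodes of non-epithelial clusters also held epithelial transcripts above 10% of the epithelial level and were kept apart as mixed barcodes. The depths were 74170599 and 67843828 UMIs in Epcam+ Icam+ libraries 1 and 2 and 84460347 UMIs in the Epcam+ library. The libraries shared at most 3 cell barcodes in any pair.

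Icam1, the ligand, was read across the epithelium of every library. It stood at 199 CPM (exact Poisson 95% interval 195 to 203) and 190 CPM (186 to 194) in the epithelium of the Epcam+ Icam+ libraries, and at 163 CPM (160 to 166) in that of the Epcam+ library. Thinning each cell to 3000 UMIs, Icam1 was found in 41.3% and 40.5% of epithelial cells after the Epcam+ Icam+ sort and in 36.4% after the Epcam+ sort. The unthinned shares of 81.4%, 77.7% and 84.3% came from median depths of 18816.5, 18864.5 and 26808.5 UMIs. In mesenchyme-like cells, taken as a class that should hold little Icam1, 0 of 15, 0 of 22 and 0 of 34 thinned cells had an Icam1 UMI, which allows shares of up to 21.8%, 15.4% and 10.3% with a UMI at that depth. Unthinned, 2.86%, 2.17% and 10.5% of them had one, with medians of 2361, 2876 and 22671.5 UMIs, so the epithelial shares were above this background in each library.

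Of the airway-like, alveolar type 1-like and tip-like cells, Icam1 was lowest in the tip-like cells of each library. In airway-like cells it stood at 201 and 203 CPM in Epcam+ Icam+ libraries 1 and 2, with 185 CPM in the Epcam+ library. In alveolar type 1-like cells it stood at 207 and 194 CPM in Epcam+ Icam+ libraries 1 and 2, with 189 CPM in the Epcam+ library. In tip-like cells it stood at 141 and 145 CPM in Epcam+ Icam+ libraries 1 and 2, with 91.0 CPM in the Epcam+ library. Neuroendocrine-like cells, at 13, 14 and 39 cells, varied widely between libraries, with 219, 62.5 and 108 CPM. The unnamed cluster 6, led by Sprr1a, Lgals3, F3 and Areg, had the highest Icam1 mean over the Epcam+ Icam+ libraries among the 12 classes with at least 20 cells in each, at 256 and 228 CPM, and 300.3 CPM in the Epcam+ library. It held 204 and 194 cells of Epcam+ Icam+ libraries 1 and 2 and 24 of the Epcam+ library. When classes were ordered by that mean, neighbours were taken to stand apart where their counting intervals did not overlap in either of these libraries. By that measure the level of cluster 6 did not stand apart from that of unnamed cluster 2, nor those of unnamed cluster 0, airway-like and alveolar type 1-like cells from each other. Alveolar type 2-like cells lay above tip-like cells in library 1 but overlapped them in library 2. Below them came the low-depth unnamed cluster 4 and macrophage-like cells, likewise apart in library 1 and overlapping in library 2, and then monocyte-like cells, unnamed cluster 24 and mesenchyme-like cells, each not apart from the next.

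Leukocytes also held the ligand. Macrophage-like cells had Icam1 at 66.7 CPM (61.1 to 72.7) and 76.7 CPM (70.6 to 83.3) in Epcam+ Icam+ libraries 1 and 2 and at 116 CPM (88.2 to 149) in the Epcam+ library. Basophil/mast-like cells held 43.7 and 49.7 CPM in the Epcam+ Icam+ libraries, from 10 and 12 UMIs, and 131 CPM in the Epcam+ library, from 20 UMIs in 7 cells. Monocyte-like cells held 39.6 and 35.0 CPM in the Epcam+ Icam+ libraries, and 0 UMIs in the 2 such cells of the Epcam+ library. The epithelial level lay above each of these in the same library. The summed epithelial markers stood at 97.2, 97.2 and 212 CPM in macrophage-like cells, against 4603, 4513 and 3849 CPM in epithelium. Icam1 UMIs per 1000 UMIs of those epithelial markers came to 687, 789 and 545 in macrophage-like cells, against 43.2, 42.2 and 42.4 in epithelium. Barcodes with more than 10% of the epithelial level of epithelial transcripts had been set apart as mixed, which caps the divisor. These ratios are therefore a description, and the part of epithelial transcripts in the Icam1 level was not tested.

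Icam2 was almost unread in epithelium, with 0, 4 and 7 UMIs in all epithelial cells of the 3 libraries, or 0, 0.0900 and 0.0959 CPM. Macrophage-like cells had 6.06, 6.02 and 7.70 CPM. Monocyte-like cells held 21.2 and 15.2 CPM in the Epcam+ Icam+ libraries, and the few endothelium-like cells, 12 and 25 in those libraries, had 319 and 203 CPM. Among these classes the order of the levels was endothelium-like, monocyte-like, macrophage-like and epithelial cells in both of those libraries. Basophil/mast-like cells had 13.1, 8.28 and 39.3 CPM in the 3 libraries, from 3, 2 and 6 UMIs. Unnamed cluster 24 had 9.58 and 8.91 CPM in the Epcam+ Icam+ libraries. Both lay above macrophage-like cells of the same library, with overlapping intervals. In the Epcam+ library, unnamed cluster 10 had 180 CPM in 5 cells.

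**Figure D1:**
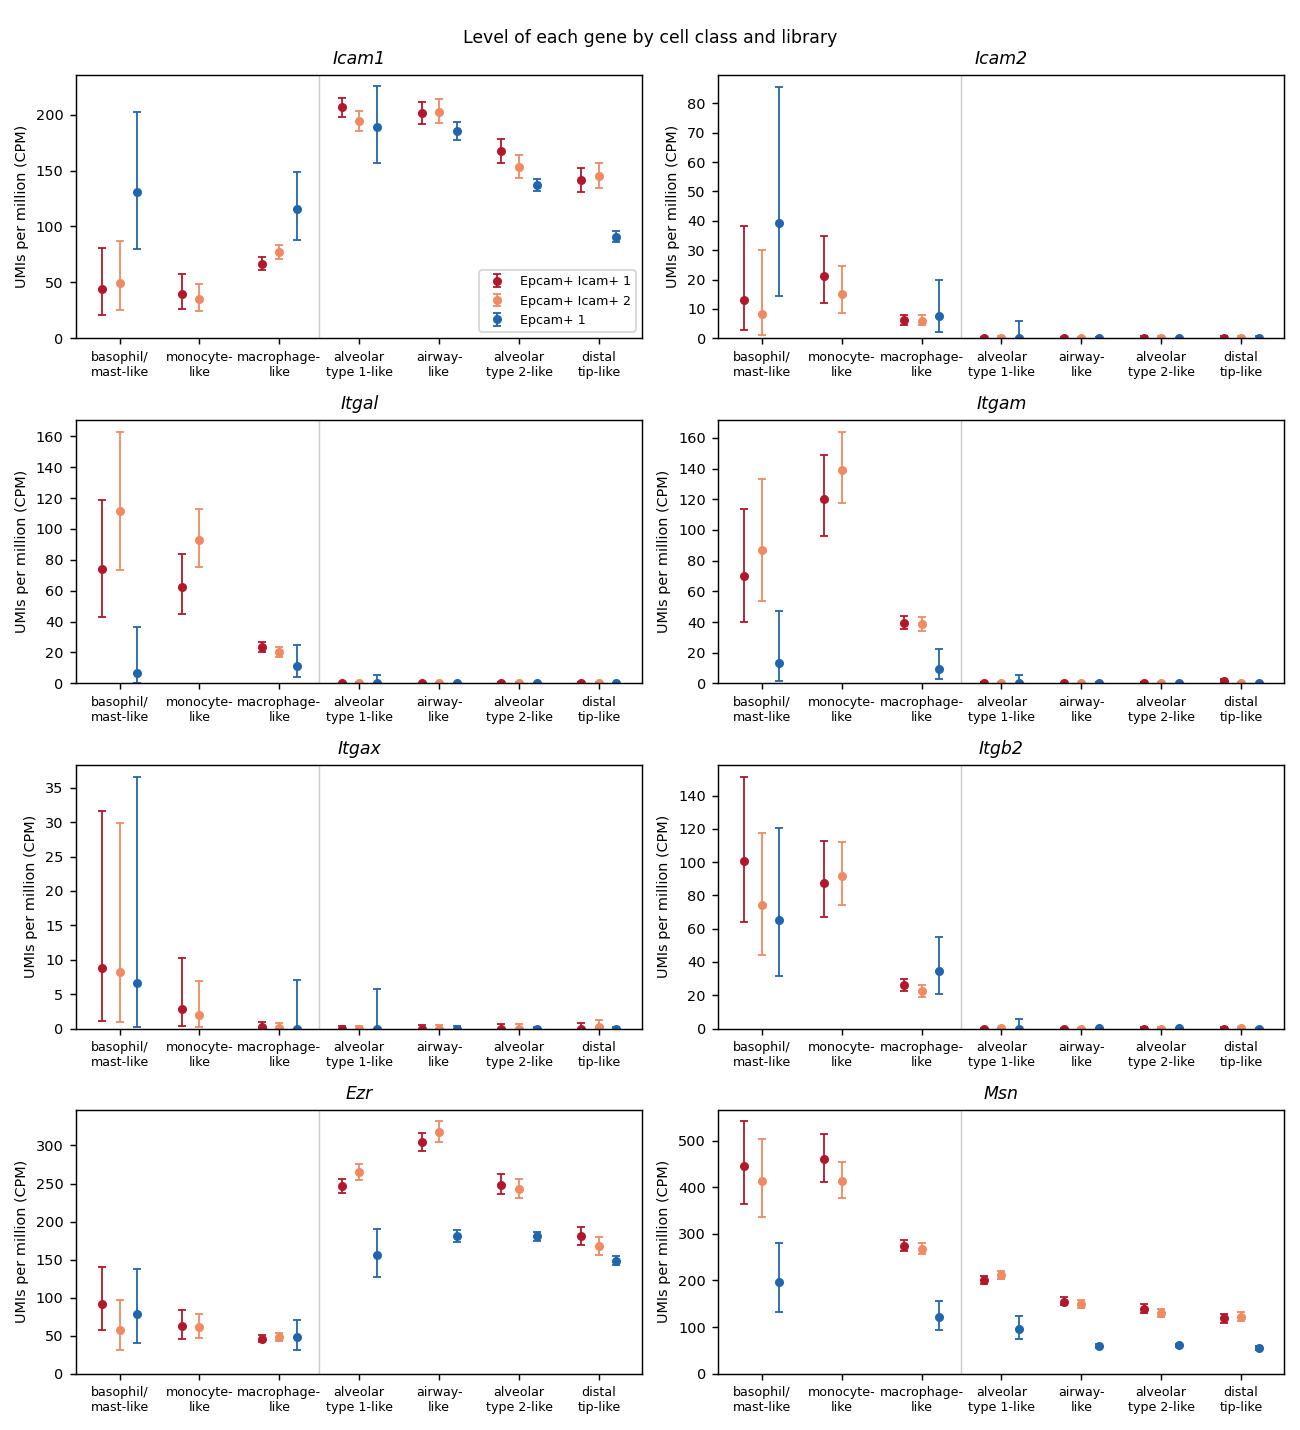
CPM of each of the 8 genes (linear axis) by class, each point a library with its exact Poisson 95% interval. Classes with under 5 cells in a library are left out for it. Icam1 and Ezr are higher over all epithelial cells (199, 190 and 163 CPM of Icam1) than in macrophage-like cells of the same library, and Itgb2 and its α chains in leukocyte classes. All epithelial cells together are not drawn as a class.

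The receptor chains were read in the leukocyte classes and were close to absent from epithelium. Itgb2, the shared β2 chain, stood at 26.2 and 22.4 CPM in macrophage-like cells of Epcam+ Icam+ libraries 1 and 2 and 34.7 CPM in those of the Epcam+ library, from 207, 167 and 18 UMIs. Epithelial cells held 0, 5 and 12 Itgb2 UMIs, or 0, 0.113 and 0.164 CPM, in 0%, 0.172% and 0.449% of cells, against 37.6%, 33.6% and 32.0% of macrophage-like cells. Median depths were 21241.5, 22042 and 20844 UMIs in macrophage-like cells and 18816.5, 18864.5 and 26808.5 UMIs in epithelial cells. No thinned epithelial cell of any library held an Itgb2 UMI, so that at most 0.161%, 0.177% and 0.149% of cells would be read with one at 3000 UMIs, a limit on detection and not on expression. Monocyte-like cells had 87.7 and 91.9 CPM of Itgb2 in the Epcam+ Icam+ libraries, above macrophage-like cells in each.

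Of the α chains, Itgam (CD11b) stood at 39.5 and 38.4 CPM in macrophage-like cells of Epcam+ Icam+ libraries 1 and 2 and 9.63 CPM (5 UMIs) in those of the Epcam+ library. In epithelium Itgam had 0.229, 0.0900 and 0.0411 CPM, from 11, 4 and 3 UMIs. Itgal (CD11a) stood at 23.4, 20.3 and 11.6 CPM in macrophage-like cells, against 0.0416, 0.0675 and 0.0274 CPM in epithelium, where it had 2, 3 and 2 UMIs. Both chains were higher in monocyte-like than in macrophage-like cells of the Epcam+ Icam+ libraries, with Itgam at 120 and 139 CPM and Itgal at 62.2 and 92.8 CPM in monocyte-like cells. Itgax (CD11c), a chain of dendritic cells and of adult alveolar macrophages, had only 2, 1 and 0 UMIs in macrophage-like cells, or 0.253, 0.134 and 0 CPM. The fetal macrophage-like cells were therefore read with Itgal and Itgam but with Itgax at or under 3 UMIs in each library.

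Counted cell by cell without thinning, an Itgb2 UMI together with a UMI of at least one α chain was found in 28.6%, 22.8% and 16.0% of macrophage-like cells. In monocyte-like cells of the Epcam+ Icam+ libraries the shares were 73.0% and 78.8%, in basophil/mast-like cells 60%, 57.9% and 14.3%, and in epithelium 0%, 0% and 0.0374% (1 of 2674 cells). Of the macrophage-like cells of Epcam+ Icam+ library 1, 140 had no α chain UMI, 146 had a UMI of 1 chain, 77 of 2 chains and 1 of all 3. In library 2 these counts were 153, 124, 65 and 0, and in the Epcam+ library 17, 5, 3 and 0. Itgb2 was read in 48.0%, 44.7% and 40.0% of macrophage-like cells with an Itgam UMI, against 27.8%, 25% and 30% of those without. Deeper cells are likelier to hold a UMI of either gene, so these shares are given as a description. Ligand and receptor also met in the same cells, with Icam1 and Itgb2 UMIs together in 83 of 364, 69 of 342 and 7 of 25 macrophage-like cells. These were 22.8%, 20.2% and 28.0% of cells, where the product of the separate shares is 22.5%, 19.2% and 25.6%.

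**Figure D2:**
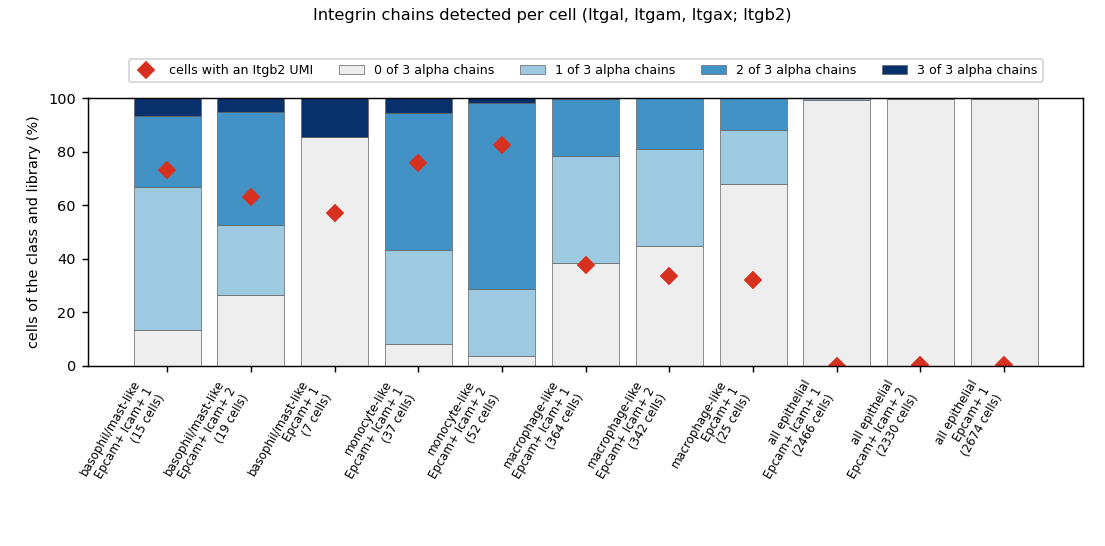
Share of unthinned cells (%) with UMIs of 0, 1, 2 or 3 of Itgal, Itgam and Itgax (stacked bars) and with an Itgb2 UMI (red diamonds), by class and library. Epithelial bars hold almost only cells with none, and 77, 65 and 3 macrophage-like cells had 2 α chains.

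Macrophage-like cells were set against epithelial cells within each library, the question being which side of the adhesion pair each class carries. The tests here and below are edgeR's quasi-likelihood test on counts summed per class and library with Benjamini-Hochberg adjustment over all genes tested, with library as a block where classes are compared. In macrophage-like cells 5 members rose and 2 fell of the 7 tested, while 71.7% of the 14205 genes tested passed in either direction. With so high a background little can be read from the number of calls, and the sizes carry the description. Itgal, Itgb2, Itgam and Icam2 had log2 fold changes of 8.84 (SE 0.293), 8.41 (SE 0.329), 8.19 (SE 0.219) and 6.99 (SE 0.492), with edgeR adjusted p of 4.29e-12, 2.47e-11, 5.01e-13 and 1.36e-08 (n = 3 libraries). Epithelium held a few UMIs of each, so these fitted values depend on the prior count, and they lay between the 94.7 and 98.3 percentiles of all absolute changes. Msn was higher by 1.07 (SE 0.129, edgeR adjusted p = 4.34e-06), at 274, 268 and 121 CPM in macrophage-like cells against 164, 164 and 63.0 CPM in epithelium. Ezr was lower, at -1.99 on the log2 scale (SE 0.145, edgeR adjusted p = 1.93e-08), at 46.0, 47.7 and 48.2 CPM in macrophage-like cells against 252, 249 and 165 CPM in epithelium. The 2 linkers thus ran in opposite directions between the classes in each of the 3 libraries. Icam1 was lower, at -0.92 (SE 0.157, edgeR adjusted p = 0.000125), a call that was lost (-0.47, adjusted p = 0.0733) when the mixed barcodes were kept with the macrophage-like cells. Itgax was too low to be tested.

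The wider machinery was counted over lists of adhesion genes. Of 12 other leukocyte integrin subunits, 9 were tested and 7 were higher in macrophage-like cells than in epithelium and 0 lower, with a median log2 fold change of 1.96 against -0.15 over all genes. Itga4, the α4 chain that binds Vcam1, had 9.16, and Itgb5 and Itgav, chains of vitronectin receptors, 4.80 and 1.69. Of 18 integrin activation genes, all tested, 15 were higher and 3 lower (median 2.05). Fermt3, the kindlin of blood cells that activates β2 integrins, rose by 7.34, Apbb1ip, the Rap1 effector that recruits talin, by 8.17, and the immune adaptor Tyrobp by 9.23. Fermt2, another kindlin, fell by 4.16 and Vcl, vinculin, by 2.47. Of 14 other adhesion ligands, 9 were tested, with 4 higher and 5 lower (median -2.77). The hyaluronan receptor Cd44 rose by 6.21 and Cd47 by 1.34, and the junction proteins Alcam and F11r fell by 3.74 and 2.77. Of 16 linkers of the cortex, 7 were higher and 5 lower (median 0.14), with Arpc2, Rhoa and Slk up by 2.15, 1.04 and 0.67, and Cttn, Actn1 and Actn4 lower, at -3.84, -1.58 and -1.41. Of 20 genes that feed Icam1 transcription, 17 were higher and 2 lower (median 2.89), among them Tnfrsf1b at 8.85, Tnfaip3 at 5.68 and Rel at 5.33 above epithelium, and Jun at -2.30. These counts too stand beside the background of 71.7% called.

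Basophil/mast-like cells carried more of the receptor chains than macrophage-like cells. Itgb2 had 101, 74.5 and 65.5 CPM in basophil/mast-like cells, against 26.2, 22.4 and 34.7 CPM in macrophage-like cells. Itgal had 74.3, 112 and 6.55 CPM, against 23.4, 20.3 and 11.6 CPM in macrophage-like cells, so it was higher in both Epcam+ Icam+ libraries and not in the Epcam+ library, where it rests on 1 UMI in 7 cells. Msn had 446, 414 and 197 CPM, against 274, 268 and 121 CPM in macrophage-like cells, higher in each library. All 10 basophil/mast markers were detected in these cells in every library, at a summed 12868, 14752 and 26766 CPM. A fit had enough cells only with the mixed barcodes kept in both classes. In the Epcam+ library 124 of 149 macrophage-like and 13 of 20 basophil/mast-like barcodes were then mixed. Keeping them took Itgb2 of its macrophage-like cells from 34.7 to 15.9 CPM and Itgal from 11.6 to 4.49 CPM. In its basophil/mast-like cells Itgb2 went from 65.5 to 77.2 CPM and Itgal from 6.55 to 12.9 CPM. The part of this in the fold changes was not tested. In that fit 7 of the 8 members tested rose and 0 fell, where 19.2% of the 10580 genes tested passed in either direction. The members were chosen by name with earlier results of these data known, so these counts are a description only. Itgal was higher by 2.58 (SE 0.302, edgeR adjusted p = 2.42e-05), Itgb2 by 2.53 (SE 0.228, adjusted p = 1.99e-06), Itgam by 1.54 (SE 0.269, adjusted p = 0.000856) and Msn by 1.04 (SE 0.167, adjusted p = 0.000423). Icam2 (1.64, edgeR adjusted p = 0.0343), Ezr (0.64, adjusted p = 0.0358) and Itgax (3.72, adjusted p = 0.0474) passed closer to the threshold. Icam1 differed by -0.33 (SE 0.206, edgeR adjusted p = 0.316) and did not pass. The calls of Icam2 and Ezr were lost when single libraries were left out, Icam2 without Epcam+ Icam+ library 1 or the Epcam+ library (adjusted p = 0.101 and 0.306) and Ezr without either Epcam+ Icam+ library (0.326 and 0.0673), and that of Itgax without a filter on low counts (0.0505).

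Airway-like and alveolar type 1-like cells were set against tip-like cells within each library. In airway-like cells 2 of the 3 members tested rose and 0 fell, where 41.7% of 12045 genes passed in either direction. Icam1 was higher by 0.56 (SE 0.119, edgeR adjusted p = 0.00300) and Ezr by 0.53 (SE 0.110, adjusted p = 0.00255), higher in airway-like cells of all 3 libraries. Ezr stood at 305, 318 and 181 CPM in airway-like cells, against 180, 167 and 149 CPM in tip-like cells. Msn, at 155, 150 and 59.1 CPM in airway-like cells and 119, 123 and 54.7 CPM in tip-like cells, did not pass (0.14, SE 0.0934, edgeR adjusted p = 0.250), but passed without the Epcam+ library (0.18, adjusted p = 0.00711). In a clustering with doublets kept, Icam1 did not pass between these classes (0.05, edgeR adjusted p = 0.763) and Msn was lower in airway-like cells (-0.33, adjusted p = 0.0193).

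In alveolar type 1-like cells, 3 of the 3 members tested rose against tip-like cells, where 45.6% of 11906 genes passed in either direction. Msn was higher by 0.58 (SE 0.0804, edgeR adjusted p = 2.69e-05), at 200.5, 212 and 96.1 CPM in alveolar type 1-like cells and 119, 123 and 54.7 CPM in tip-like cells. Icam1 was higher by 0.41 (SE 0.0990, adjusted p = 0.00290) and Ezr by 0.26 (SE 0.0889, adjusted p = 0.0263). The Ezr call was lost in 6 of the 8 alternatives, including without Epcam+ Icam+ library 1 (0.23, adjusted p = 0.261) or library 2 (0.11, adjusted p = 0.628). The alveolar type 1-like class held 443, 375 and 39 cells, and its summed alveolar type 1 markers stood at 689.9, 710.2 and 212 CPM, so the Epcam+ library adds few cells with a lower marker level.

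The sorts were compared class by class. The sort, the gene table and the software version recorded in the file headers changed together, and these cannot be told apart. The Epcam+ sort has 1 library, so every p-value between sorts, here and in the paragraphs that follow, rests on the spread between the 2 Epcam+ Icam+ libraries (1 residual degree of freedom) and on spread borrowed across genes, and takes the lone library to vary alike. In all epithelial cells, 3 of the 4 members tested rose in the Epcam+ Icam+ sort and 0 fell, where 74.7% of 14823 genes passed in either direction, a share the members do not exceed beyond 1 gene. Msn was higher by 1.26 (SE 0.0445, edgeR adjusted p = 1.48e-07), with 164 and 164 CPM in the Epcam+ Icam+ libraries against 63.0 CPM in the Epcam+ library. Ezr was higher by 0.48 (SE 0.0391, adjusted p = 1.36e-05), with 252 and 249 CPM against 165 CPM in the Epcam+ library. Icam1 was higher by 0.13 (SE 0.0435, adjusted p = 0.0248), a check on the gate more than a result, and 10.7% of genes had a smaller absolute change. Itgam, at 11, 4 and 3 UMIs, did not pass (adjusted p = 0.117), but passed with doublets kept (2.29, adjusted p = 0.0272) and in the joint clustering (2.35, adjusted p = 0.0361), and the other 4 were too low to be tested.

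By class, tip-like cells showed all 3 tested members higher in the Epcam+ Icam+ sort, where 63.9% of 11258 genes passed. Icam1 was higher by 0.63 (SE 0.0763, edgeR adjusted p = 1.31e-15), Msn by 1.12 (SE 0.0850, adjusted p = 6.63e-38) and Ezr by 0.20 (SE 0.0665, adjusted p = 0.00447, lost under DESeq2 with adjusted p = 0.221). In airway-like cells 2 of 3 rose, where 65.2% of 12376 genes passed, with Msn at 1.27 and Ezr at 0.69 (SE 0.0744 and 0.0674). Icam1 in airway-like cells differed by 0.03 (SE 0.0657, edgeR adjusted p = 0.715) and did not pass. Whether the Icam1 difference differs between tip-like and airway-like cells was not tested. Within tip-like cells the summed alveolar type 2 markers also moved, at 11120 and 9973 CPM in Epcam+ Icam+ libraries 1 and 2, with 2918 CPM in the Epcam+ library, and the tip markers at 546 and 522 CPM against 1352 CPM. Their part in the Icam1 difference was not tested.

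**Figure D3:**
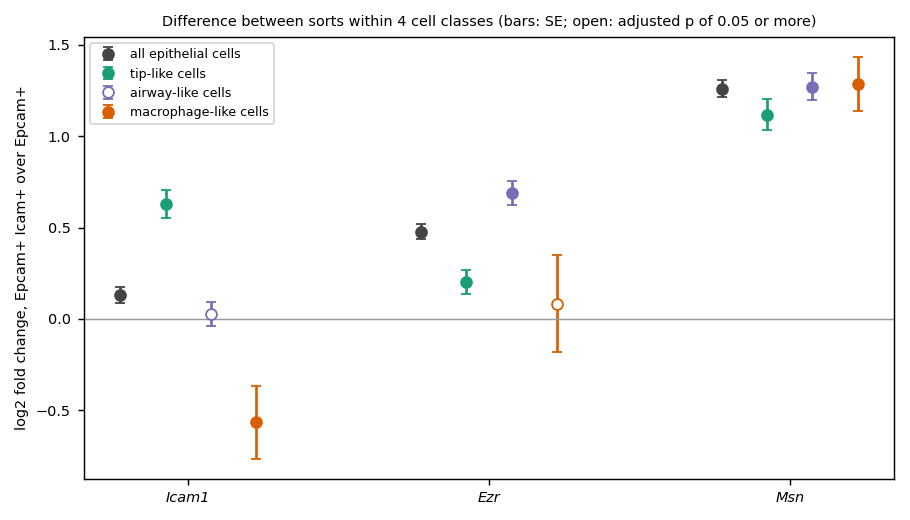
Log2 fold change of Icam1, Ezr and Msn, Epcam+ Icam+ over Epcam+, with standard errors, in epithelium, tip-like, airway-like and macrophage-like cells. Open circles did not pass an adjusted p of 0.05. Icam2 and the integrin chains, some of them tested, are not drawn. Msn lies above 1 in all 4 (1.26, 1.12, 1.27 and 1.28), and Icam1 runs from 0.63 in tip-like cells to -0.56 in macrophage-like cells.

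In macrophage-like cells the sort difference took both directions. Of 7 members tested 2 rose and 1 fell, where 25.2% of 11118 genes passed in either direction. Msn was higher by 1.28 (SE 0.149, edgeR adjusted p = 5.07e-08) and Itgam by 2.14 (SE 0.448, adjusted p = 0.000499), while Icam1 was lower in the Epcam+ Icam+ sort, at -0.56 (SE 0.199, adjusted p = 0.0354). The Icam1 call was lost without a filter on low counts (edgeR adjusted p = 0.0676) and under DESeq2 (0.174). Itgal (1.04), Itgb2 (-0.39), Icam2 (-0.22) and Ezr (0.08) did not pass, with edgeR adjusted p of 0.133, 0.462, 0.867 and 0.872. With the mixed barcodes kept, Itgal passed (2.01, edgeR adjusted p = 4.73e-09). The Epcam+ library had only 25 such cells. The summed epithelial markers in macrophage-like cells moved as well, at 97.2 and 97.2 CPM in Epcam+ Icam+ libraries 1 and 2, with 212 CPM in the Epcam+ library, and their part in the Icam1 difference was not tested.

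For Itgam the gene table bears on the value. The Epcam+ library's table also lists Gm49368, a protein-coding model on the same strand that shares 3450 of the 5024 exonic bases of Itgam, though 0 of its last 1000, and the tables of the Epcam+ Icam+ libraries do not list it. Cell Ranger does not count reads that match more than 1 gene, so sort and gene table cannot be told apart for Itgam. Gm49368 itself had 0 UMIs beside 5 of Itgam in macrophage-like cells of the Epcam+ library, and 1 beside 35 in its mixed macrophage barcodes. Antisense Gm47079 overlaps Icam1 by 511 exonic bases and is listed in every table.

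The difference between sorts was then compared between epithelium and macrophage-like cells in one model. Icam1 differed, with a sort effect in epithelium higher than in macrophage-like cells by a log2 of 0.66 (SE 0.190, edgeR adjusted p = 0.0246), and was the 1 member of 7 to pass, where 6.66% of 14754 genes passed. It did not pass without a filter on low counts (adjusted p = 0.0550), with a stricter cell filter (0.140), in a joint clustering (0.0547) or under DESeq2 (0.769). Msn differed by -0.07 (SE 0.162, edgeR adjusted p = 0.964), and the median over all genes was -0.44, which RLE scaling moved by 0.16. Other members passed under single alternatives, Msn (-0.52, edgeR adjusted p = 0.00115) and Ezr (0.47, adjusted p = 0.00216) with the mixed barcodes kept, and Icam2 (-4.99, adjusted p = 0.00369) with the stricter cell filter.

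Within the epithelium, cells with an Icam1 UMI after thinning to 3000 UMIs were set against cells without one, asking which partners run with the ligand in the same cells. The groups held 946, 841 and 901 cells with a UMI and 1345, 1236 and 1576 without. Each group pooled all epithelial classes. Icam1 and Msn were both lower in tip-like than in alveolar type 1-like cells of every library. The part of class mix in the CPM values below was not tested. Msn stood at 182, 169 and 67.3 CPM in cells with an Icam1 UMI and 151, 152 and 57.9 CPM in cells without, higher in all 3 libraries, but did not pass (0.21, SE 0.0630, edgeR adjusted p = 0.0760). Ezr stood at 263, 263 and 177 CPM in cells with and 249, 224 and 164 CPM in cells without, also higher in all 3, and did not pass (0.14, SE 0.0520, adjusted p = 0.198). With 0 of 2 members called beside 1.28% of 10671 genes, no linker was shown to differ at 3000 UMIs. Thinned to 6000 UMIs, Msn passed (0.17, edgeR adjusted p = 0.0306), and with doublets kept it passed as well (0.21, adjusted p = 0.0480). With library and class as a block, where 99 of 7982 genes passed, neither Msn nor Ezr gained a call. Of the listed genes, Rap1b, a small GTPase that switches integrins on, was higher by 0.24 (edgeR adjusted p = 0.0284), and Actn4, an α-actinin, of the family known to bind the Icam1 tail, by 0.19 (adjusted p = 0.0417), 1 of 13 tested in each of their lists. None of the 5 other ligands, 6 other integrin subunits and 16 transcriptional inputs tested passed.

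**Figure D4:**
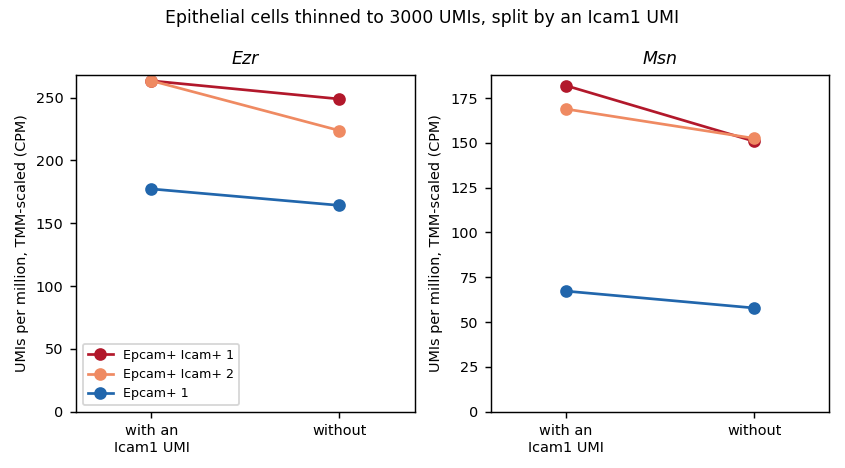
CPM of Ezr and Msn in thinned epithelial cells with an Icam1 UMI and without one, a line for each library. Each line is higher in cells with an Icam1 UMI, for example Msn at 182 against 151 CPM in Epcam+ Icam+ library 1. Each group pools all epithelial classes, and the part of class mix in these values was not tested.

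The lists were also counted between sorts in epithelium, where 74.7% of all genes passed and the median log2 fold change of all genes was 0.01. Of 9 other integrin subunits tested 5 rose and 1 fell in the Epcam+ Icam+ sort (median 0.55), with Itgb1, the shared β1 chain, at 1.16 and Itga6, a laminin-binding chain, at 0.55. Of 14 cortical linkers tested 8 rose and 3 fell (median 0.33), with the ERM kinase Slk at 1.97, Rock2 at 1.85 and Rock1 at 0.95, and the scaffold Slc9a3r1 at -0.99, radixin (Rdx) at -0.30 and Arpc2 at -0.22. Of 18 activation genes 7 rose and 3 fell (median 0.02), with Vcl at 1.83, Fermt2 at 1.27 and talin 1 (Tln1) at 0.78. Of 9 other ligands tested 4 rose and 1 fell (median 0.20), with Alcam at 1.23 and Cd47 at 0.61. Of 20 inputs to Icam1 transcription 11 rose and 4 fell (median 0.33). These ran in both directions, with the immediate early factor Egr1 at 1.30, Jun at 0.32 and the NF-κB subunit Rela at 0.24, and Fos at -1.05, the NF-κB inhibitor Nfkbia at -0.97 and the interferon-γ receptor chain Ifngr1 at -0.36.

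Among the genes whose levels ran most like those of Icam1 over 16 sums of epithelial classes by library were Gprc5a (Pearson r = 0.940), Stbd1 (0.925), Irak2 (0.908) and Cxcl16 (0.905), of 5274 genes, on log2(CPM + 5) centred within library. Msn had 0.72 and Ezr 0.51 by the same measure. For Itgb2, over 25 sums of all classes, the closest of 5413 genes were Ncf4 and Il1b (both 0.994), Clec4n and Clec4e (both 0.989) and Ifngr1 (0.985). Its partner chains had 0.972 (Itgam), 0.948 (Itgal) and 0.786 (Itgax), and the ligand Icam1 had -0.320. Points share libraries and depth, so these are descriptions.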

How the data were processed

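3 libraries of 10x Genomics 3′ v3 single-cell RNA sequencing were used. The values the authors deposited are UMI counts. The submitters' processing notes name Cell Ranger 2.1.1 with mm10. The file headers name version 5.0.1 for the Epcam+ Icam+ libraries and 3.0.2 for the Epcam+ library. The gene tables held 32285 and 31053 genes, of which 30406 were joined by Ensembl ID. The 8 genes and the gene and marker lists were chosen with earlier results of these data known, and the genes named from each list are those past the threshold with the largest change, a mean of at least 20 CPM and one direction in each library. 1 gene that the rule on likeness to Icam1 would name is not reported here.

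Barcodes with at least 1000 UMIs, 500 genes and at most 10% mitochondrial UMIs were kept, and the highest doublet scores were left out at 0.8% per 1000 barcodes (129, 115 and 88 cells), since the automatic threshold of the doublet caller found 0. Free RNA was not removed. Clusters came from scanpy 1.11.5 with leidenalg 0.10.2 in Python 3.11.15 (2000 variable genes, 30 components, 15 neighbours, resolution 1). Epithelial and other cells were separated within each library. Naming within libraries gave names that the libraries did not share, so each part was then clustered over the libraries together, the epithelium scaled by library and without cell cycle genes. Mixed barcodes lay within a factor of 2 of their limit in 164, 124 and 65 cases. Shares given as thinned used cells thinned to 3000 UMIs, and all other shares used unthinned cells, whose depths differ. Intervals are exact at 95% and cover counting error only.

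Summed counts were tested with edgeR 4.0.16 in R 4.3.3 (quasi-likelihood, TMM, filterByExpr, Benjamini-Hochberg, threshold 0.05). Sort comparisons had 1 residual degree of freedom, with spread borrowed across genes. In data simulated for the sort comparison in epithelium (14823 genes), 100 of 100 genes changed by a log2 of 1 and 98 of 100 changed by 0.5 were recovered. For macrophage-like against epithelial cells (14205 genes) these were 96 and 28, for the Icam1 UMI comparison (10671 genes) 91 and 59, and for alveolar type 1-like against tip-like cells (11906 genes) 97 and 57. The simulated libraries all had the same spread, the lone Epcam+ library included, and no effect of gene table or software. The recovery therefore does not measure how reliable the calls between sorts are. Alternatives were RLE scaling, DESeq2 1.42.0, no filter on low counts, a stricter cell filter, doublets kept, resolution 2, a joint clustering throughout, thinning to 6000 UMIs, a block for class, each library left out and, chosen after seeing the data, mixed barcodes kept and Itgam summed with Gm49368.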

Additional observations from a re-analysis of the deposited data

Results flagged for a closer look

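The sort difference of Icam1 pointed in opposite directions in 2 cell classes, 0.13 higher in epithelium and -0.56 in macrophage-like cells on the log2 scale, and the test of the difference between them gave 0.66 (SE 0.190, edgeR quasi-likelihood adjusted p = 0.0246). It was lost under 4 alternatives (adjusted p of 0.0547 to 0.769), and with 1 Epcam+ library the spread of that sort was not measured. Icam1 protein was the gate, the Epcam+ library had 25 macrophage-like cells with 60 Icam1 UMIs, and sort and library cannot be told apart. The class mix of the epithelium differed between sorts, and its part in the epithelial value was not tested.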

How the results depend on the processing

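The sorts could not be compared in pairs, since there was 1 Epcam+ library and its label carries no replicate number. Of 411 recomputed member fold changes, 368 stayed the same, 21 lost their call, 9 gained one, 9 reversed and 4 moved with no test. Staying the same meant keeping direction and side of the threshold. For sort values without a test it meant lying within the standard error of the main value. Of the 297 that kept all libraries, 265 kept direction and side, 15 lost their call, 8 gained one and 9 reversed. Of 84 counts, 57 stayed within 1.5 times. Most were numbers of genes called, and the rest were member and library pairs higher in macrophage-like than in epithelial cells. The reversed values are, in macrophage-like cells between sorts with mixed barcodes kept, Itgb2 0.46 and Ezr -0.057. In the epithelium minus macrophage difference they are Itgal 0.24 (stricter filter), Itgam 0.036 (doublets kept) and 0.10 (joint clustering), and Msn 0.10 (RLE and DESeq2 alike). Against tip-like cells they are Ezr -0.051 in alveolar type 1-like cells (resolution 2) and Msn -0.33 in airway-like cells (doublets kept). Under DESeq2 the genes called between sorts numbered 3489 in tip-like, 4575 in airway-like and 1130 in macrophage-like cells, 63 for the epithelium minus macrophage difference, 3216 for alveolar type 1-like against tip-like cells and 28 for the Icam1 UMI comparison. RLE scaling gave 392 for the epithelium minus macrophage difference. With doublets kept the counts were 4947 (airway-like cells between sorts), 2167 (airway-like against tip-like) and 210 (Icam1 UMI), and resolution 2 gave 5357 in airway-like cells between sorts. Mixed barcodes kept gave 7602 (macrophage-like cells between sorts), 4170 (epithelium minus macrophage) and 6685 (macrophage-like against epithelial). The Icam1 UMI comparison called 270 genes with no filter on low counts and 475 at 6000 UMIs. Leaving out each library in turn gave 6379 to 11007 genes for macrophage-like against epithelial cells, 1237 to 2462 for basophil/mast-like against macrophage-like, 2804 to 5980 for alveolar type 1-like against tip-like, 3105 to 6312 for airway-like against tip-like and 37 to 209 for the Icam1 UMI comparison. Apart from the counts with a library left out, which have fewer samples, the cause of these changes was not tested. A fold change between sorts without an Epcam+ Icam+ library has no test; for Icam1 it was 0.11 and 0.19 in epithelium, -0.45 and -0.68 in macrophage-like cells and 0.51 and 0.80 for their difference. The stricter filter left no tip-like cells, the joint clustering too few tip-like, alveolar type 1-like and airway-like cells, and basophil/mast-like cells had no fit without mixed barcodes. Itgam and Itgal in the Epcam+ macrophage-like cells rest on 5 and 6 UMIs, Icam2 on 4 and Itgax on 0, so depth limits these values.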

Other observations

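Unnamed cluster 26, led by H2-Eb1, Cd74 and H2-Aa, genes of class II antigen presentation, held the ligand and every receptor chain in each library. It had 12, 12 and 2 cells. Icam1 stood at 283, 378 and 523 CPM there, Itgb2 at 96.2, 57.2 and 168 CPM and Itgam at 116, 74.8 and 74.8 CPM. Itgax, near 0 in macrophage-like cells, stood at 65.8, 44.0 and 37.4 CPM (13, 10 and 2 UMIs), and 3, 4 and 1 of these cells had UMIs of all 3 α chains. Cluster 24, led by Lyz2, Cd52 and S100a4, with 27 and 25 cells of the Epcam+ Icam+ libraries, had the opposite balance, with Itgb2 at 80.4 and 61.4 CPM and Icam1 at 25.9 and 18.8 CPM.

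Endothelium-like cells of the Epcam+ Icam+ libraries had Icam1 at 381 and 191 CPM and Msn at 406 and 347 CPM, with no Itgb2 UMI in 12 and 25 cells. Mixed barcodes with macrophage and epithelial transcripts, which numbered 269, 174 and 124, had Icam1 at 121, 146 and 156 CPM and an Itgb2 UMI in 29.7%, 29.9% and 24.2% of cells. In mesenchyme-like cells Msn stood at 59.6 and 61.4 CPM in the Epcam+ Icam+ libraries and 26.1 CPM in the Epcam+ library, from 12, 15 and 22 UMIs. The intervals of the sorts overlapped (30.8 to 104 and 34.4 to 101 against 16.3 to 39.5). Median depths of these cells were 2361, 2876 and 22671.5 UMIs. No test was made of these values.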
